A study of Mus musculus with 12 samples.

Results

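RNA levels of 10 genes of the Notch pathway were compared between crypts and crypt-derived monolayers of the mouse intestine. The genes were the receptors Notch1 and Notch2, the ligands Dll1, Dll4, Jag1 and Jag2, the target genes Hes1, Hey1 and Nrarp, and the transcription factor Atoh1. They were chosen by name, and each name matched 1 row among the 55487 genes of the deposited tables. RNA sequencing had been performed on 12 libraries in 4 groups of 3, all from C57BL/6 mice aged 6 to 10 weeks. SI tissue and LI tissue were crypts freshly isolated from the small and the large intestine, with 1 mouse per library. SI monolayers and LI monolayers were crypts plated on Matrigel and cultured for 24 h, with pooled wells in each library. No group had received a drug.

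Several features of the preparations limit what the groups stand for. The monolayer medium held Wnt3a, EGF, Noggin and R-spondin-1, and the seeding medium of the first hours also held inhibitors, among them those of GSK3 and of BMP receptors. Crypts for SI monolayers came from the jejunum and were released with EDTA. Crypts for LI monolayers were released with collagenase, dispase and DNase before EDTA. Region and isolation therefore went together in every monolayer library and cannot be told apart. How the tissue crypts were isolated for sequencing was not stated separately, so the same may hold between SI and LI tissue. How many mice stood behind each pool of wells was not stated, so that p-values measure the spread between these samples, which may be partly technical. For monolayers, the paper took the large intestine from the same mice as the jejunum. Which libraries shared a mouse was not stated.

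Notch receptors are cleaved after they bind a Delta-like or Jagged ligand on a neighbouring cell, and the freed intracellular domain joins Rbpj and a Mastermind protein on DNA to turn on target genes such as Hes1. In the intestinal crypt this signal keeps stem and progenitor cells dividing and steers their daughters towards the absorptive lineage. Atoh1 directs cells to the secretory lineage of goblet, Paneth and enteroendocrine cells, is repressed by Hes1, and marks cells that carry Delta-like ligands.

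Libraries held 59016196 to 76216530 counts, and 3 counts, the limit that a count of 0 allows, were worth 0.0394 to 0.0508 CPM, the count scaled to library size. All 10 genes passed the filter on low counts. Of 10 epithelial marker genes, among them Epcam and Cdh1, none was at 0 in any group. Their sum was 948567 to 1060873 normalized counts in tissue and 1859373 to 1904364 in monolayers of SI. In LI it was 1617116 to 1651233 in tissue and 2411199 to 2511959 in monolayers. The single genes did not all follow these sums. By the rule for calls given below, 5 were higher and none lower in SI monolayers, where 9.71% and 16.4% of all genes tested were. In LI monolayers 4 were higher and 2 lower, where 14.5% and 23.5% of all genes were. The 2 lower ones, chosen after their values were seen, were Krt20 and Cdx2 (log2 fold changes of -2.01 and -1.01). Epcam stood at -0.43 in LI and was not called. Markers of other cells were also present. The sum of 12 immune markers was 32619 to 47256 normalized counts in tissue and 1318 to 1499 in monolayers of SI, and 3186 to 4524 in tissue and 252 to 411 in monolayers of LI. The sum of 12 endothelial markers was 518 to 591 in tissue and 238 to 320 in monolayers of SI, and 496 to 567 in tissue and 374 to 504 in monolayers of LI. For 12 mesenchymal markers the sum was 1070 to 2231 in tissue and 795 to 1462 in monolayers of SI. In LI the mesenchymal sum was 2998 to 5475 in tissue and 2384 to 3705 in monolayers. Transcripts of mitochondrial genes took up to 9.16% of the counts in SI tissue and as little as 0.472% in SI monolayers.

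The comparison of monolayers with tissue asks how far a day of culture kept the pathway as it was in the crypt. In SI, 4 of the 10 genes changed: Jag2 was higher in monolayers, and Notch1, Dll4 and Nrarp were lower. A gene was called as changed at an adjusted p under 0.05 and a log2 fold change of 1 or more in either direction. By this rule 26.1% of the 19581 genes tested were called in SI, 9.71% as higher and 16.4% as lower. In LI, 5 of the 10 genes changed: Notch2 was higher in monolayers, and Dll1, Dll4, Nrarp and Atoh1 were lower. Of all genes tested in LI, 38.0% were called, 14.5% as higher and 23.5% as lower. Dll4 and Nrarp were thus lower in the monolayers of both regions. The median log2 fold change of the 10 genes was -0.48 in SI, where that of all genes tested was -0.05. In LI the medians were -0.38 and -0.05. Without the minimum fold change, 8 of the 10 genes passed in SI and 9 in LI, beside 59.6% and 68.7% of all genes tested. The libraries of monolayers and tissue did not overlap for 8 genes in SI and for 9 in LI, beside 66.4% and 73.1% of all genes tested. Here and in what follows, the error of a log2 fold change is its SE, and that of a level or ratio is the SD of 3 libraries. In bulk RNA, fewer cells of a type and less RNA per cell cannot be told apart, and this holds for each value given here.

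The comparison of regions asks which differences between SI and LI the tissue showed and which the monolayers showed. In tissue, Notch2 and Dll1 were higher in SI and Atoh1 was higher in LI. Of all genes tested in tissue, 22.7% were called, 11.6% as higher and 11.1% as lower in SI. In monolayers, Dll1, Dll4 and Jag2 were higher in SI and Notch2 was higher in LI. Of all genes tested in monolayers, 21.2% were called, 12.4% as higher and 8.88% as lower in SI. The interaction is the change from tissue to monolayers in SI minus that in LI, on the log2 scale. It was called for Notch2, Dll1, Jag2 and Atoh1, 4 of the 10 genes, above 0 for the last 3 and below 0 for Notch2. Of all genes tested it was called for 20.0%, above 0 for 11.4% and below 0 for 8.51%. Without the minimum fold change, 7 of the 10 genes passed between tissues, 7 between monolayers and 8 in the interaction, beside 53.9%, 51.8% and 46.3% of all genes tested. The libraries of the regions did not overlap for 5 genes in tissue and for 7 in monolayers, beside 58.8% and 62.3% of all genes tested.

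**Figure D1:**
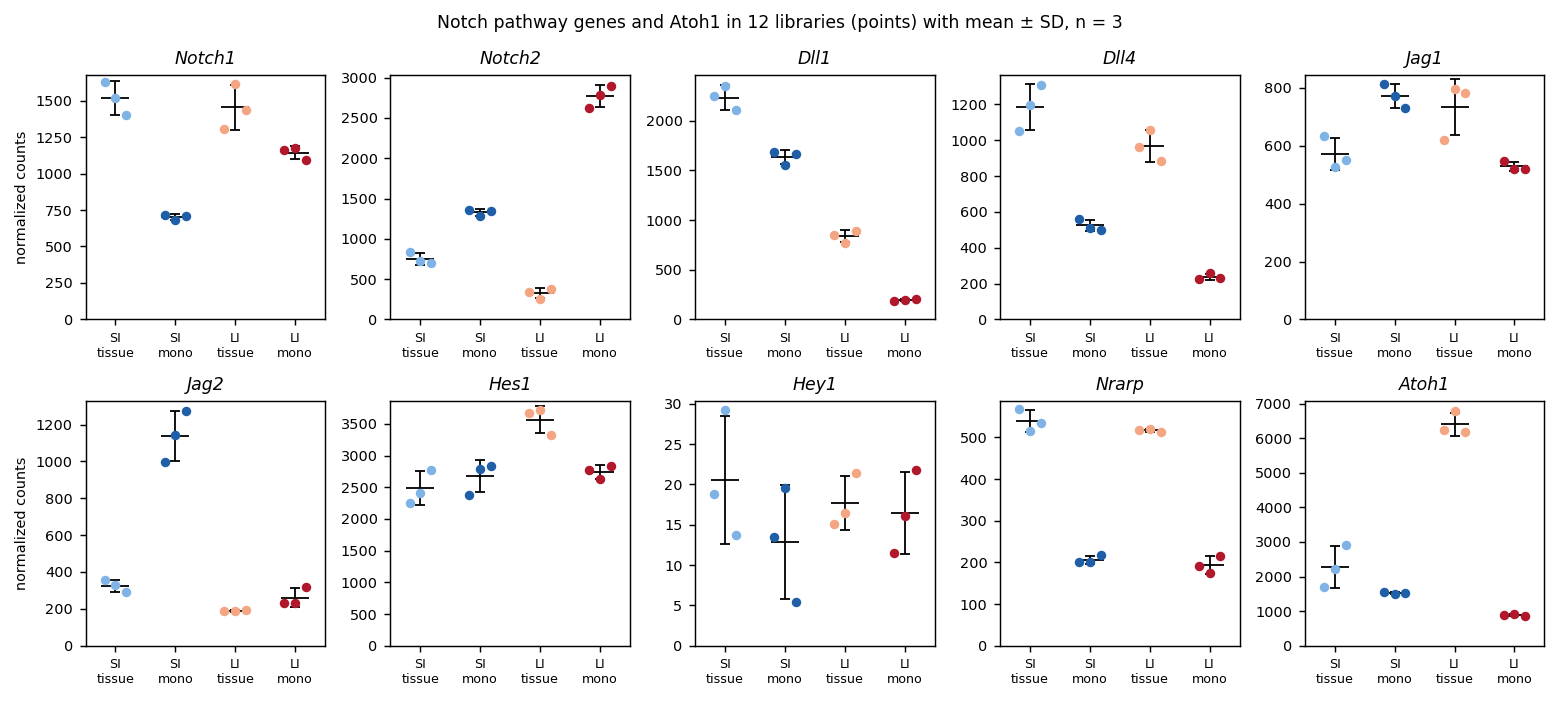
Normalized counts (linear axes from 0) of the 10 genes in the 12 libraries, with 1 point per library and the mean ± SD of each group of 3. Notch2 reached its highest values in LI monolayers (2625 to 2898), where Dll1 had its lowest (183 to 208), and Atoh1 stood above 6188 in each library of LI tissue.

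By the annotation of GRCm38, Notch1 (ENSMUSG00000026923.15) lies on chromosome 2 from 26457903 to 26516663 on the minus strand, and Notch2 (ENSMUSG00000027878.11) on chromosome 3 from 98013527 to 98150361 on the plus strand. Of the Delta-like ligands, Dll1 (ENSMUSG00000014773.13) lies on chromosome 17 from 15367354 to 15376872 on the minus strand and Dll4 (ENSMUSG00000027314.6) on chromosome 2 from 119325784 to 119335962 on the plus strand. Of the Jagged ligands, Jag1 (ENSMUSG00000027276.7) lies on chromosome 2 from 137081456 to 137116644 and Jag2 (ENSMUSG00000002799.6) on chromosome 12 from 112907819 to 112929776, both on the minus strand. Hes1 (ENSMUSG00000022528.8) lies on chromosome 16 from 30064384 to 30067796 on the plus strand and Hey1 (ENSMUSG00000040289.8) on chromosome 3 from 8663359 to 8667256 on the minus strand. Nrarp (ENSMUSG00000078202.3) lies on chromosome 2 from 25180758 to 25183339 and Atoh1 (ENSMUSG00000073043.5) on chromosome 6 from 64729125 to 64731245, both on the plus strand. All 10 are protein-coding genes, and a count stands for reads over all exons of a gene. Whether reads were counted by strand was not stated, so reads of a gene and of an opposite-strand gene over the same bases cannot be told apart. Such a gene, Gm14207, shares exon bases with Dll4 and had means of 255 ± 43.0 normalized counts in tissue and 109 ± 13.6 in monolayers of SI (SD, n = 3). In LI its means were 365 ± 54.8 in tissue and 54.2 ± 7.82 in monolayers. The opposite-strand transcripts over Notch1 had means of at most 28.0 normalized counts over the 12 libraries, and the one over Nrarp had a mean of 0.0. One over Dll1 was not analysed here.

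The 250 bases before the annotated start are shown for the 4 genes that were lower in LI monolayers than in LI tissue, from RefSeq on GRCm38.p6, each 5′ to 3′ on the strand of the gene. They are chr17:15376933-15377182 on the minus strand for Dll1, and on the plus strand chr2:119325534-119325783 for Dll4, chr2:25180508-25180757 for Nrarp and chr6:64728875-64729124 for Atoh1. Capitals mark the letters CAGCTG (an E-box) and CACNAG (an N-box, the kind of site that Hes proteins bind, where N is any base), each searched on both strands, so that an N-box on the other strand reads CTNGTG.
Dll1: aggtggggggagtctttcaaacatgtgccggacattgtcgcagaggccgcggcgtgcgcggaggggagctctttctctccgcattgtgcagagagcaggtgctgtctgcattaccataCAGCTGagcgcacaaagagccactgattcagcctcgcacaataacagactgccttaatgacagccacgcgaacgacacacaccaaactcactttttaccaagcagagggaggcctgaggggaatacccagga
Dll4: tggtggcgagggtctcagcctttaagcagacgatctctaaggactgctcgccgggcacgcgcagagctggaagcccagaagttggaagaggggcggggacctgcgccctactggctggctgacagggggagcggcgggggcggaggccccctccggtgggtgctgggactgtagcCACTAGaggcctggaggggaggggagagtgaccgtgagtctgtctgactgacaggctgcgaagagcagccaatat
Nrarp: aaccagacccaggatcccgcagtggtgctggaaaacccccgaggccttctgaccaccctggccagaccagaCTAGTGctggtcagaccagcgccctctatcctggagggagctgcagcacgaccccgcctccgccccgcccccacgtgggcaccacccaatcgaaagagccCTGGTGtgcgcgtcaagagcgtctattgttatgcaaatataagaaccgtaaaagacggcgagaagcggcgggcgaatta
Atoh1: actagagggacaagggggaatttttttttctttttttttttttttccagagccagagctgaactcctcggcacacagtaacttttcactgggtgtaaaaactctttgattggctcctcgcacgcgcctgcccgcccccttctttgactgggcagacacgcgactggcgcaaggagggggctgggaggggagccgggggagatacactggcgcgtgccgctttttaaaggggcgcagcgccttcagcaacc
RefSeq gave such a window for 8 of the 10 genes and 9 windows in all, since Dll1 has another start. The window of Dll1 printed here, that of the start farther upstream, held a CAGCTG at 132 to 127 bases before the start, and its other window held no match. Dll4 held an N-box at 75 to 70 bases before the start. Nrarp held 2 of them on the other strand, at 179 to 174 and at 79 to 74 bases before the start. Atoh1 held neither set of letters in its window. Of the 9 windows, 4 held CACNAG, where 36.7% of the 32851 promoter windows of all genes did, and 2 held CAGCTG, where 13.0% of all windows did. The letters TGGGAA, the core to which Rbpj binds, were in none of the 9 windows on either strand and in 21.6% of all windows. No match overlapped another. Hes1 and Hey1 had no entry.

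From tissue to monolayers, the receptors moved in opposite directions in both regions. Notch1, a receptor of crypt progenitor cells, stood at 1630, 1520 and 1401 normalized counts in the libraries of SI tissue and at 716, 679 and 709 in SI monolayers. In LI it stood at 1309, 1617 and 1436 in tissue and at 1165, 1174 and 1092 in monolayers. In each region every monolayer library was below every tissue library, and the libraries of SI and LI tissue overlapped. Notch1 fell by 1.08 on the log2 scale in SI (SE 0.09, adjusted p = 2.23e-08). In LI its log2 fold change was -0.30 ± 0.09 (SE, adjusted p = 0.00525), which did not reach the minimum fold change. In monolayers it was lower in SI than in LI by a log2 difference of -0.68 ± 0.09 (adjusted p = 6.77e-06), also short of the minimum, and the interaction was -0.78 ± 0.12.

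Notch2, the other receptor that epithelial progenitors carry, stood at 832, 721 and 696 normalized counts in SI tissue and at 1353, 1282 and 1349 in SI monolayers. In LI tissue it stood at 346, 259 and 371, and in LI monolayers at 2625, 2785 and 2898. The order was LI monolayers, SI monolayers, SI tissue and LI tissue, and no neighbours in that order overlapped. Notch2 was 8.78-fold higher in LI monolayers than in LI tissue (log2 fold change 3.13 ± 0.11, adjusted p = 6.53e-13). In SI the log2 fold change was 0.86 ± 0.11 (adjusted p = 2.86e-06), short of the minimum fold change. Its regional difference turned over between the preparations. SI tissue was above LI tissue by 1.24 ± 0.11 on the log2 scale (adjusted p = 1.02e-07), and SI monolayers were below LI monolayers (-1.03 ± 0.10, adjusted p = 3.89e-07). The last call was lost without 1 of 2 single libraries: without SI monolayers replicate 2 the log2 difference was -0.98, and without LI monolayers replicate 3 it was -0.97. The interaction was -2.27 ± 0.15 (adjusted p = 8.37e-09).

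Dll1 and Dll4 are the Delta-like ligands that secretory cells of the crypt present to their neighbours, and both were lowest in LI monolayers. Dll1 stood at 2250, 2346 and 2103 normalized counts in SI tissue and at 1683, 1549 and 1664 in SI monolayers. In LI tissue it stood at 852, 770 and 887, and in LI monolayers at 183, 197 and 208. No 2 groups overlapped. Dll1 fell by 2.05 on the log2 scale in LI (SE 0.09, adjusted p = 3.65e-12), against a log2 fold change of -0.42 ± 0.08 in SI (adjusted p = 0.000160) that did not reach the minimum. It was 2.74-fold higher in SI than in LI tissue (log2 difference 1.46 ± 0.08, adjusted p = 2.06e-10) and 8.49-fold higher in SI than in LI monolayers (3.09 ± 0.09, adjusted p = 1.60e-13). The interaction was 1.63 ± 0.11 (adjusted p = 1.31e-08).

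Dll4 stood at 1052, 1196 and 1306 normalized counts in SI tissue and at 560, 511 and 502 in SI monolayers. In LI it stood at 963, 1058 and 884 in tissue and at 223, 257 and 232 in monolayers. The tissue groups overlapped, and the monolayers of each region lay below both. Dll4 fell by 1.14 on the log2 scale in SI (SE 0.10, adjusted p = 8.63e-08) and fell by 1.98 in LI (SE 0.11, adjusted p = 1.05e-10). The difference between these changes was 0.84 ± 0.15 (adjusted p = 0.000234), short of the minimum, which it passed without LI monolayers replicate 2. Between the regions Dll4 differed in monolayers (log2 difference 1.17 ± 0.11, adjusted p = 1.81e-07). In tissue the log2 difference was 0.33 ± 0.10 (adjusted p = 0.0111). The opposite-strand gene Gm14207 moved in the same direction as Dll4 in both regions, and its part in these values was not tested.

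The Jagged ligands, which bind the same receptors, differed from each other. Jag2 stood at 355, 329 and 290 normalized counts in SI tissue and at 998, 1144 and 1271 in SI monolayers. In LI tissue it stood at 187, 186 and 193, and in LI monolayers at 231, 233 and 318. SI monolayers lay above every other library, and SI tissue overlapped with LI monolayers. Jag2 rose 3.59-fold in SI (log2 fold change 1.84 ± 0.14, adjusted p = 8.74e-09), while in LI the log2 fold change was 0.51 ± 0.14 (adjusted p = 0.00463). It was 4.45-fold higher in SI than in LI monolayers (log2 difference 2.15 ± 0.14, adjusted p = 2.39e-09), and in tissue the log2 difference was 0.82 ± 0.14 (adjusted p = 0.000128). The interaction was 1.33 ± 0.20 (adjusted p = 4.36e-05). In LI, without LI monolayers replicate 3, the log2 fold change of Jag2 was 0.27 (adjusted p = 0.0925).

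Jag1 was called in none of the comparisons. In SI it stood at 634, 527 and 550 normalized counts in tissue and at 815, 774 and 732 in monolayers. In LI it stood at 621, 795 and 783 in tissue and at 547, 519 and 521 in monolayers. Ordered by level, each group overlapped with the next. Monolayers stood above tissue in SI (log2 fold change 0.47 ± 0.11, adjusted p = 0.00164) and below it in LI (-0.43 ± 0.11, adjusted p = 0.00304), with no overlap in either region. The interaction of 0.90 ± 0.16 (adjusted p = 0.000214) was short of the minimum fold change. It passed the minimum when 1 of 4 single libraries was left out, with values of 1.01 to 1.04.

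The 3 target genes did not move together. Hes1, the repressor that carries the Notch signal to Atoh1, stood at 2255, 2416 and 2778 normalized counts in SI tissue and at 2380, 2794 and 2840 in SI monolayers. In LI it stood at 3672, 3715 and 3320 in tissue and at 2774, 2626 and 2829 in monolayers. LI tissue lay above every other library, and the other groups overlapped with their neighbours. Hes1 was called in no comparison. Its log2 fold change was 0.14 ± 0.08 in SI (adjusted p = 0.167) and -0.33 ± 0.08 in LI (adjusted p = 0.00216). The log2 difference of SI from LI was -0.48 ± 0.08 in tissue (adjusted p = 0.000135) and -0.01 ± 0.08 in monolayers (adjusted p = 0.943).

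Nrarp, a target whose protein limits Notch signalling in a feedback loop, stood at 568, 516 and 536 normalized counts in SI tissue and at 201, 200 and 218 in SI monolayers. In LI it stood at 517, 520 and 514 in tissue and at 192, 174 and 216 in monolayers. All monolayer libraries were below all tissue libraries, and the regions overlapped in both preparations. Nrarp fell by 1.35 on the log2 scale in SI (SE 0.12, adjusted p = 4.86e-08) and fell by 1.36 in LI (SE 0.12, adjusted p = 2.65e-08). The interaction was 0.01 ± 0.16 (adjusted p = 0.969). Hey1, a target with roles in the heart and blood vessels, had only 6 to 28 counts per library. Its means were 20.6 ± 7.90 normalized counts in tissue and 12.8 ± 7.08 in monolayers of SI, and 17.6 ± 3.35 in tissue and 16.5 ± 5.10 in monolayers of LI. No difference of Hey1 was detectable at this depth, with log2 fold changes of -0.64 ± 0.52 in SI (adjusted p = 0.309) and -0.06 ± 0.51 in LI (adjusted p = 0.929).

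**Figure D2:**
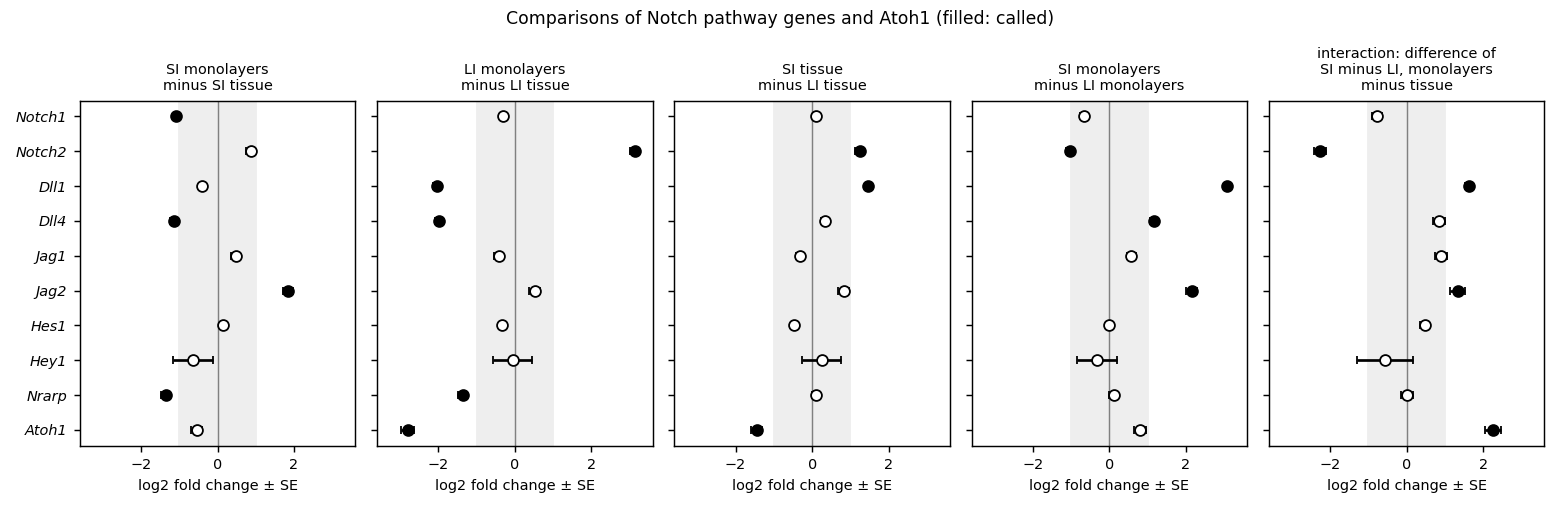
Log2 fold change ± SE of the 10 genes in each comparison and in the interaction, with filled points for genes called and a grey band for absolute values under 1. Notch2 lies on the right in LI (3.13) and Atoh1 on the left (-2.81), and Nrarp lies at almost the same place in SI (-1.35) and in LI (-1.36).

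Atoh1, at the head of the secretory lineage, was called between LI monolayers and LI tissue, between the tissues and in the interaction. It stood at 1684, 2225 and 2911 normalized counts in SI tissue and at 1545, 1502 and 1516 in SI monolayers. In LI tissue it stood at 6232, 6784 and 6188, and in LI monolayers at 895, 918 and 847. The order was LI tissue, SI tissue, SI monolayers and LI monolayers, with no overlap between neighbours. Atoh1 was 6.99-fold lower in LI monolayers than in LI tissue (log2 fold change -2.81 ± 0.16, adjusted p = 1.90e-08). In SI the log2 fold change was -0.55 ± 0.15 (adjusted p = 0.00849), short of the minimum, and with only the SI libraries in the model the adjusted p was 0.0643. Atoh1 was 2.73-fold lower in SI than in LI tissue (log2 difference -1.45 ± 0.15, adjusted p = 8.13e-06). In monolayers the log2 difference was 0.81 ± 0.15 in favour of SI (adjusted p = 0.00102), short of the minimum. The interaction was 2.26 ± 0.22 (adjusted p = 7.00e-06).

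The spread of Atoh1 in SI tissue was wide, with an SD of 615 around a mean of 2273. The sum of 14 products of secretory cells, among them Muc2, Lyz1 and Chga, was 609104 normalized counts in the SI tissue library with the lowest Atoh1, 869874 in the next and 1418245 in the library with the highest Atoh1. In the same order, mitochondrial transcripts took 9.16%, 5.92% and 4.56% of the counts. The sum was 573780 to 592996 in SI monolayers. In LI it was 1232881 to 1562570 in tissue and 148300 to 159178 in monolayers. Of the 14 products, 6 were called lower and none higher in SI monolayers, where 16.4% and 9.71% of all genes tested were. In LI monolayers 10 were called lower and 2 higher, where 23.5% and 14.5% of all genes were. The 2 higher in LI, chosen after their values were seen, were Chga (log2 fold change 2.31) and Chgb (2.21). Lyz1 (0.94) and Mmp7 (-2.04) were not called there. The part of these products and of the mitochondrial share in the values of Atoh1, Dll1 and Dll4 was not tested.

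Pairs of genes were also compared within each library, per kilobase of exon, which removes the scaling between libraries. Notch1 per Notch2 was 1.54 ± 0.0563 in SI tissue and 0.400 ± 0.00153 in SI monolayers (SD, n = 3). In LI it was 3.51 ± 1.06 in tissue, with 1 library at 4.73 and the others at 2.87 and 2.93, and 0.314 ± 0.0259 in monolayers. Notch1 was thus the more abundant receptor transcript in all 6 tissue libraries and Notch2 in all 6 monolayer libraries. Jag1 per Jag2 was 2.10 ± 0.178 in SI tissue and 0.824 ± 0.144 in SI monolayers, and 4.65 ± 0.601 in LI tissue and 2.48 ± 0.463 in LI monolayers. Hes1 per Atoh1 was 1.17 ± 0.203 in SI tissue and 1.83 ± 0.197 in SI monolayers, and 0.581 ± 0.0290 in LI tissue and 3.23 ± 0.25 in LI monolayers. Hes1 was thus below Atoh1 per kilobase in every library of LI tissue and above it in every library of LI monolayers. In each of these pairs, the libraries of the 2 preparations did not overlap in either region.

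Dll1 per Dll4 was 1.74 ± 0.246 in SI tissue and 2.85 ± 0.158 in SI monolayers, with no overlap. In LI the same ratio was 0.796 ± 0.127 in tissue and 0.755 ± 0.0577 in monolayers, and these overlapped. Dll1 per Atoh1 overlapped between the preparations in SI (0.522 ± 0.154 in tissue and 0.539 ± 0.0182 in monolayers) and was 0.0660 ± 0.00790 in LI tissue and 0.111 ± 0.0106 in LI monolayers. Dll4 per Atoh1 was 0.296 ± 0.0484 in SI tissue and 0.190 ± 0.00881 in SI monolayers. In LI it was 0.0832 ± 0.00398 in tissue and 0.148 ± 0.00893 in monolayers. Of the 12 comparisons of ratios, 10 gave p = 0.1 in a two-sided exact permutation test, the smallest p that 3 libraries against 3 allow (adjusted p = 0.12), so that none could pass 0.05. The other 2, Dll1 per Dll4 in LI and Dll1 per Atoh1 in SI, gave p = 0.8 in the exact permutation test (adjusted p = 0.8).

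**Figure D3:**
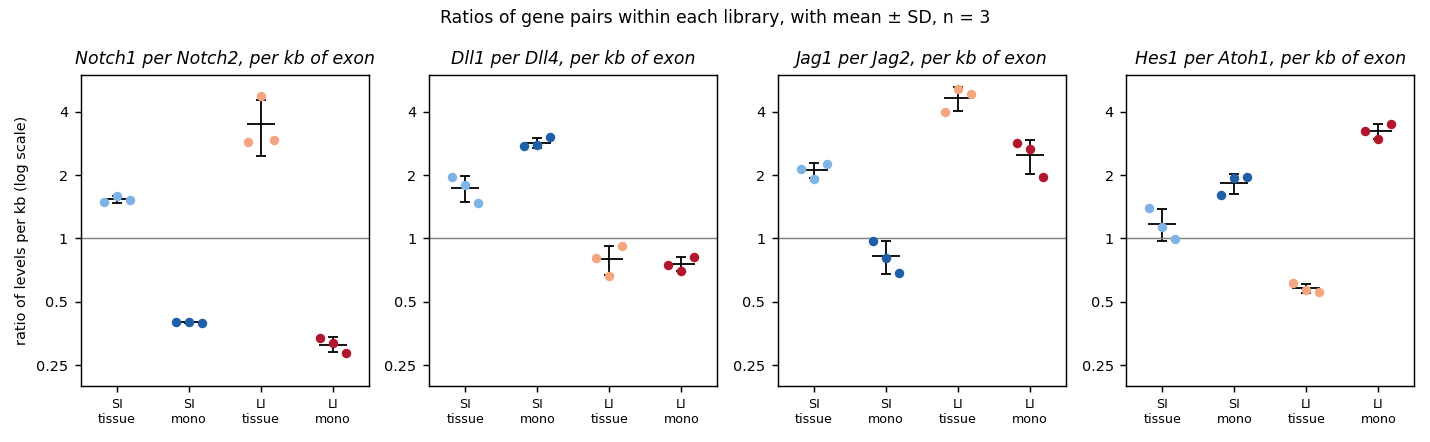
Ratios of 4 gene pairs within each of the 12 libraries (log axis, levels per kilobase of exon), with the mean ± SD of each group of 3. Notch1 per Notch2 lies above 1 in tissue and below 1 in monolayers of both regions, and Hes1 per Atoh1 lies below 1 in LI tissue alone among the group means.

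Per kilobase of exon, the 10 transcripts of SI tissue ranged from 1219 normalized counts for Hes1 and 1072 for Atoh1 down to 46.7 for Jag2 and 6.30 for Hey1. Dll1, at 529 per kilobase, was the most abundant ligand there, before Dll4 at 307. In SI monolayers Hes1 stood at 1311 per kilobase, Atoh1 at 717 and Dll1 at 387. In LI tissue Atoh1, at 3018 per kilobase, was above Hes1 at 1752, and Dll4 at 251 was the most abundant ligand. In LI monolayers Hes1 at 1347 per kilobase was again the highest, Notch2 at 257 stood below Atoh1 at 418, and the most abundant ligand was Jag1 at 90.7. The receptors stayed below the target Hes1 and below Atoh1 in the means of all 4 groups.

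Beyond these 10 genes, 47 other genes of the pathway were looked up, and 44 passed the filter on low counts. In SI monolayers 3 of the 44 were called higher and 7 lower, where 9.71% and 16.4% of all genes tested were. In LI monolayers 8 were called higher and 8 lower, where 14.5% and 23.5% of all genes were. The number called lay near the share of all genes called in each region (26.1% in SI and 38.0% in LI). The median log2 fold change of the 44 was -0.18 in SI and 0.09 in LI, beside -0.05 for all genes tested in each comparison. Of the remaining receptors and ligands, Dlk1, a Delta-like protein that lacks the usual receptor-binding domain, rose by 3.93 ± 0.27 on the log2 scale in SI, from 25.3 ± 1.94 to 380 ± 10.1 normalized counts. Notch3 rose by 1.85 ± 0.38 in SI, where it stood at 22.3 to 41.7 normalized counts in tissue and at 85.7 to 119 in monolayers. Notch4, known as a receptor of blood vessels, fell by 1.05 in LI (SE 0.14). Dlk2 and Dll3, chosen after their values were seen, were the remaining calls of this set in SI, at log2 fold changes of 1.37 and -1.76.

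Of 15 genes that cleave or glycosylate the receptors, 2 were called in SI and 4 in LI, beside 26.1% and 38.0% of all genes tested. The Fringe enzymes Lfng and Mfng, which add sugars that alter how receptors answer Delta-like and Jagged ligands, fell in both regions. The log2 fold changes of Lfng were -1.40 ± 0.11 in SI and -1.98 ± 0.11 in LI, from 890 ± 72.1 to 330 ± 11.1 normalized counts in SI and from 1257 ± 96.7 to 309 ± 35.2 in LI. Mfng, at a lower level, had log2 fold changes of -2.48 ± 0.36 in SI and -3.73 ± 0.44 in LI. Aph1b, a subunit of the gamma-secretase that cuts the receptors, fell by 1.41 in LI (SE 0.13). The fourth call in LI was Furin, the protease of receptor maturation, at 1.14, and it was chosen after its value was seen.

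The 8 genes of the nuclear complex showed no call in SI, where 26.1% of all genes tested were called, and 4 calls in LI, all of them higher in monolayers, where 14.5% of all genes were called higher. Maml2, a Mastermind coactivator, rose by 2.59 ± 0.29 on the log2 scale, from 28.9 ± 6.58 to 169 ± 10.1 normalized counts. The corepressor Spen rose by 1.23 ± 0.07. Maml1, chosen after its value was seen, was also called, at 1.18. Rbpj, the DNA-binding partner, stood at log2 fold changes of -0.17 in SI and 0.32 in LI and was not called. Of 12 genes of receptor trafficking and turnover, 2 were called in SI and 4 in LI, beside 26.1% and 38.0% of all genes tested. The ubiquitin ligase gene Dtx1 fell by 3.65 in SI (SE 0.32) and fell by 2.42 in LI (SE 0.37) on the log2 scale. It went from 1125 ± 453 to 87.0 ± 4.16 normalized counts in SI. Numbl, related to the Notch inhibitor Numb, fell by 1.10 in SI (SE 0.30). Dtx2 and Neurl1b, 2 other ubiquitin ligase genes, rose by 1.33 ± 0.08 and 1.06 ± 0.07 in LI. Fbxw7, which marks the receptor's intracellular domain for destruction, was the remaining call in LI, at 1.01, and was chosen after its value was seen.

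Of 7 other Hes and Hey genes, Hes3, Hes5 and Hey2 did not pass the filter on low counts. Hes2 fell by 3.74 in SI (SE 0.22) and fell by 3.24 in LI (SE 0.25) on the log2 scale, from 1188 ± 306 to 86.4 ± 5.27 and from 299 ± 45.6 to 30.2 ± 10.2 normalized counts. Hes6, which counteracts Hes1 in other tissues, fell by 2.07 in LI (SE 0.07), from 7289 ± 221 to 1677 ± 101, and stood at 4488 ± 420 and 2961 ± 60.5 in SI tissue and SI monolayers. Heyl, known as a target gene of vascular cells, fell by 4.23 in SI (SE 0.43), from 132 ± 53.1 to 6.73 ± 0.841 normalized counts. In LI tissue Heyl stood at 6.11 ± 2.13. Hes7, chosen after its value was seen, was called lower in LI at -3.53, with a mean of 0.980 normalized counts in LI monolayers. Heyl and Notch4 are known from blood vessels, but which cells held their RNA here was not tested. Of the 9 endothelial markers that passed the filter, 6 were lower and 1 higher in SI monolayers. Cdh5 and Emcn were at 0 in all 3 libraries of SI monolayers. In LI monolayers 2 of the 9 were lower and 4 higher. Of the 12 immune markers, 11 were lower and none higher in each region. Of all genes tested, 16.4% were called lower and 9.71% higher in SI, and 23.5% and 14.5% in LI. Heyl was 21.7-fold higher in SI than in LI tissue, and Notch4 was 2.03-fold lower. In tissue the endothelial sum was 518 to 591 in SI and 496 to 567 in LI. The sum of the 5 other Notch receptors and ligands, Notch4 and Dlk1 among them, was 405 to 547 in SI tissue and 1210 to 1713 in LI tissue. The immune sum was 32619 to 47256 in SI tissue and 3186 to 4524 in LI tissue. The part of endothelial, immune and mesenchymal cells in the values of Heyl, Notch4 and Mfng was not tested.

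Atoh1 acts with other transcription factors of the secretory lineage, and 16 of these were examined. In SI monolayers 1 was called higher and 3 lower, near the 26.1% of all genes tested that were called there. In LI monolayers 3 were called higher and 9 lower, where 14.5% and 23.5% of all genes were. Their median log2 fold change was -0.59 in SI and -1.70 in LI, beside -0.05 for all genes tested. The largest falls in LI were those of Creb3l4 (-3.36 ± 0.26) and Creb3l1 (-3.18 ± 0.09), which belong to the secretory machinery, and of Gfi1 (-3.30 ± 0.19), which acts after Atoh1. The 3 called higher in LI, chosen after their values were seen, were Sox4 (1.39), Insm1 (1.38) and Foxa1 (1.03). Creb3l1 went from 13901 ± 640 to 1485 ± 120 normalized counts in LI, and it stood at 2554 ± 274 and 1752 ± 157 in SI tissue and SI monolayers. In SI the largest changes were those of Pou2f3, the factor of tuft cells (-3.21 ± 0.18), of Klf4, a factor of goblet cells (-1.73 ± 0.07), and of Foxa1, which rose by 2.45 ± 0.08. Pou2f3 (-3.11 ± 0.26) and Klf4 (-3.13 ± 0.08) were also called lower in LI, and Gfi1 (-1.03 ± 0.17) was also called lower in SI. In the interaction 8 of the 16 were called higher and 1 lower, beside 11.4% and 8.51% of all genes tested, so that the change in SI was the more positive one for those 8.

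**Figure D4:**
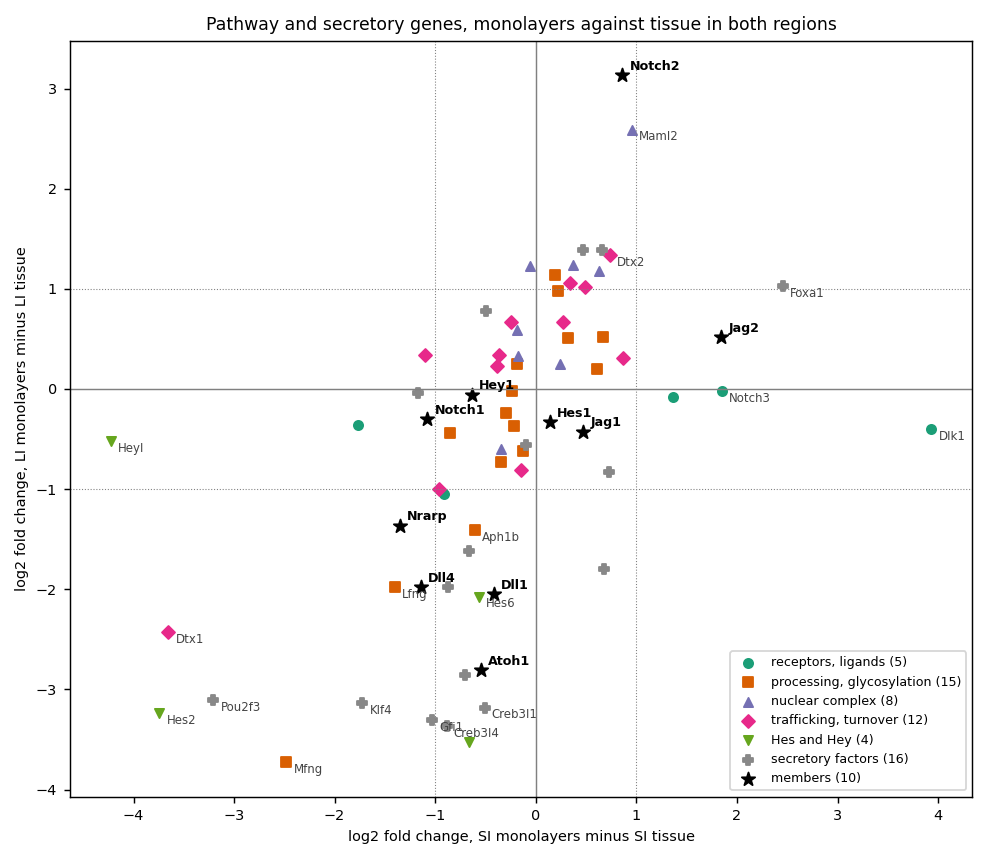
Log2 fold change of monolayers against tissue in SI (horizontal axis) and LI (vertical axis) for the 10 genes (stars), 44 other pathway genes and 16 secretory transcription factors, with dotted lines at absolute values of 1 and names at some of the points. Dll4, Nrarp, Lfng, Mfng, Dtx1 and Hes2 lie below -1 on both axes, as do the secretory factors Gfi1, Klf4 and Pou2f3. Notch2 (3.13) and Maml2 (2.59) lie highest on the LI axis.

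Over the 12 libraries, the levels of the 10 genes (log2 CPM) followed each other in part. Pearson's r was 0.892 between Dll4 and Nrarp, 0.814 between Dll1 and Dll4 and 0.777 between Nrarp and Atoh1. It was -0.980 between Notch2 and Atoh1 and -0.858 between Notch1 and Jag2. Hes1 reached r = 0.661 with Atoh1 and lay between -0.545 and 0.259 with the other 8 genes. The 12 points fall into 4 groups and share region, preparation and scaling, so these values are descriptions. Likeness was ranked by r among the other genes with a mean of at least 1 on that log2 scale, 11662 for Hey1 and 11661 for each of the rest. Those most like Atoh1 were Ramp1 (r = 0.995), Creb3l4 (0.994) and Galnt5 (0.992), and 177 genes exceeded 0.95. Most like Dll1 were Rcbtb1, Pfkfb4 and Mgam, and most like Dll4 were Ccl9, Narf and Ociad2. Notch1 was most like Ip6k1 (r = 0.986), Notch2 most like Ric1 (0.995) and Nrarp most like Gpd1l (0.993). The first for Jag2 was Pgd (r = 0.987) and the first for Jag1 was Akr1c19 (0.95). No gene exceeded 0.95 for Hes1, where Ttyh1 came first (r = 0.925), or for Hey1, where Zbtb37 did (0.884).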

How the data were processed

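RNA sequencing of 12 mouse libraries was analysed, in 4 groups of 3 taken from their labels. The authors deposited counts per gene, from paired-end reads aligned to GRCm38 with STAR 2.7.9a and counted on GENCODE vM25 with featureCounts 2.0.2. The authors also deposited a normalized signal, in which the counts of each library are divided by 1 DESeq2 size factor (0.850 to 1.12) without a log transform. Whether both mates of a pair were counted was not stated, and 73.4% to 77.4% of counts from 1 to 20 were even. Limits of 3 counts cover counting error only.

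The 10 genes and the lists of other genes were chosen with earlier results of these data known. Counts were tested with edgeR 4.0.16 in R 4.3.3 (filterByExpr, TMM scaling, robust quasi-likelihood F test) in 1 model of the 4 group means, with Benjamini-Hochberg adjustment over the 19581 genes tested in each comparison. The SE is the log2 fold change divided by the square root of F. Levels and overlaps between libraries use the authors' normalized counts. Levels per kilobase divide these by the union of exons in GENCODE vM21 on GRCm38. The fit was tested on simulated data. Of the other lists, up to 3 called genes with the largest change and a mean of at least 1 CPM were named per list in each region, and for likeness the 3 genes with the highest r. One gene that this rule named is not reported here. Alternatives were the Wald test of DESeq2 1.42.0, upper quartile scaling, no filter, a filter of 10 counts in each library, calls by adjusted p alone, fits of the compared groups alone, a block for the replicate number, halved counts and leaving out each library.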

Additional observations from a re-analysis of the deposited data

Results flagged for a closer look

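For the genes below, the change from tissue to monolayers differed between SI and LI in a test of the difference itself, at an adjusted p under 0.05 and an absolute log2 value of at least 1 (edgeR, 3 libraries per group, change in SI minus change in LI). Among the 10 genes the values were -2.27 for Notch2, 1.63 for Dll1, 1.33 for Jag2 and 2.26 for Atoh1. Notch2, Dll1 and Atoh1 were called between monolayers and tissue in LI (log2 fold changes of 3.13, -2.05 and -2.81) and fell short of the minimum fold change in SI (0.86, -0.42 and -0.55). With only the SI libraries in the model, the adjusted p of Atoh1 in SI was 0.0643. Jag2 was called in SI (1.84), and its log2 fold change in LI was 0.51.

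Among the other pathway genes named, the values were 1.87 for Notch3 (adjusted p = 0.0112), 4.34 for Dlk1, -1.63 for Maml2, -1.28 for Spen, -1.44 for Numbl, 1.51 for Hes6 and -3.71 for Heyl. Among the secretory transcription factors named, the values were 2.27 for Gfi1, 1.43 for Foxa1, 2.67 for Creb3l1, 2.48 for Creb3l4 and 1.41 for Klf4. Dlk1 varied widely in LI tissue (606 ± 261 normalized counts, SD, n = 3). Epithelial, immune, endothelial and secretory markers moved between the same groups, and their part in these values was not tested.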

How the results depend on the processing

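Of the 50 values of the 10 genes (5 comparisons each), 20 were called, and 19 of these stayed called in the same direction in every alternative that gave a value. The exception was Notch2 between SI and LI monolayers, which lost the call in 2 fits without 1 library (range -1.04 to -0.97). Of the 30 values not called, 5 changed sign in fits without 1 library, over ranges of -0.026 to 0.10 for Hes1 between the monolayers, -0.38 to 0.11 for Hey1 in LI, -0.080 to 0.48 for Hey1 between the tissues, -0.74 to 0.066 for Hey1 between the monolayers and -0.025 to 0.21 for the interaction of Nrarp. With no minimum fold change, the genes called among the 10 numbered 8 in SI, 9 in LI, 7 between tissues, 7 between monolayers and 8 in the interaction. The other pathway genes called then numbered 38, 34, 30, 34 and 29 of 44 in the same order, and the secretory factors in SI numbered 13 of 16. Of all genes tested, 59.6%, 68.7%, 53.9%, 51.8% and 46.3% passed in these comparisons. The higher counts follow from the removed limit. The other alternatives kept these counts within 1.5 times. Hey1 gave no value with at least 10 counts in every library.

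Deviations of same-numbered libraries correlated between -0.05 and 0.06, and none of 18 pairs exceeded 0.1. No pairing by replicate number was thus seen, which cannot exclude that libraries shared mice. With the replicate block, 5017 genes were called in SI and 7367 in LI, against 5110 and 7442 without it, and no call of the 10 genes changed. Upper quartile scaling moved the median log2 fold change of all genes in LI from -0.05 to -0.17. At 6 to 28 counts per library, depth limits what can be said of Hey1.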

Other observations

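Stem cell genes depend on Notch and Wnt signals in the crypt. Of 12 such genes, 3 were called lower and none higher in SI monolayers, where 16.4% of all genes tested were called lower. In LI 7 were called lower and none higher, where 23.5% of all genes were called lower. In the interaction 7 of the 12 were called higher and 1 lower, beside 11.4% and 8.51% of all genes tested. The change in SI was thus the more positive one for those 7. Whether the counts of calls differ between the regions was not tested. Olfm4, a Notch-dependent marker of small intestinal stem cells, stood at 84066 ± 11554 normalized counts in SI tissue and at 1209 ± 101 in SI monolayers (SD, n = 3), a log2 fold change of -6.09 ± 1.19 (SE, adjusted p = 0.00204). Lgr5, the stem cell receptor for R-spondins, stood at 661 ± 136 in SI tissue and 702 ± 49.2 in SI monolayers, and at 289 ± 21.8 in LI tissue and 25.7 ± 10.6 in LI monolayers. Ascl2, a transcription factor of stem cells, fell by 6.19 on the log2 scale in LI (SE 0.37). Of 12 proliferation genes, 1 was called higher in SI and 3 in LI, beside 9.71% and 14.5% of all genes tested, all of these calls being subunits of the replicative helicase, with Mcm3 at 1.24 ± 0.09 in SI and 1.87 ± 0.09 in LI. Of 12 mesenchymal markers, 3 were called lower and none higher in SI, where 16.4% and 9.71% of all genes were. In LI 6 were called lower and 2 higher, where 23.5% and 14.5% of all genes were.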
